A study of Drosophila melanogaster with 6 samples.

Results

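The genes described here encode ERp60 and 9 relatives or partners of it in the protein disulfide isomerase family of Drosophila melanogaster: Pdi, CaBP1, prtp, wbl, CG9911, CG10029, CG9302, CG5027 and Ero1L. They were listed by gene symbol, in a choice made with earlier results of these data known. Of the 10 genes, 9 had at least 1 unique molecular identifier (UMI, a random tag that lets each captured transcript be counted once) among 13189 such genes, and CG10029 was not analysed here. The comparison sets 3 libraries whose genotype label is Pex5-depleted, called Pex5-labelled libraries here, against 3 control libraries with the genotype label wildtype. Both groups hold intestinal progenitor cells sorted as GFP-positive, from 200 guts and about 40000 sorted cells per replicate. The sorting gate was set with esgGFP>w1118 flies, in which escargot marks progenitors, and with w1118 flies that carry no GFP. The labels call the replicates biological, and give neither the way Pex5 was depleted nor the sex and age of the flies.

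Secreted and membrane proteins acquire disulfide bonds in the endoplasmic reticulum (ER). Disulfide isomerases make, break and rearrange these bonds through pairs of cysteines in thioredoxin-like domains, and the oxidase Ero1 takes the electrons from them and passes them to oxygen. In mammals the ERp60 relative PDIA3 works with the lectins calnexin and calreticulin on proteins that carry N-linked sugars. The title of the series names ERp60 and shifts in ether phospholipid metabolism. The series' one comparison asks which transcripts differ when Pex5, the receptor that carries enzymes into peroxisomes, is depleted in progenitors.

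Depth was 2573882 to 4793433 UMIs a library over the 6 libraries, with 8890 to 10349 genes detected in each. The Pex5 transcript was counted 2, 21 and 41 times in Pex5-labelled replicates 1, 2 and 3, and 8, 6 and 14 times in control replicates 1, 2 and 3. The counts thus overlapped and did not show lower Pex5 in the Pex5-labelled libraries, so every direction given here rests on that label. The progenitor gene esg stood at 47.2, 52.9 and 65.96 counts per 1000000 UMIs (CPM, scaled with the TMM method) in Pex5-labelled libraries, and at 29.6, 42.3 and 55.5 CPM in controls. Among markers of other cell types, the sums of enteroendocrine, enterocyte and muscle markers lay apart between the groups, and those of haemocyte and fat body markers overlapped. The threshold used below is an adjusted p under 0.05 in edgeR's quasi-likelihood test. Of all tested genes 1.65% passed it, 0.833% higher and 0.816% lower. The summed level of 17 enteroendocrine markers was 564 to 1011 CPM in Pex5-labelled libraries and 1086 to 3160 CPM in controls, with 3 of 12 tested markers past the threshold, each lower. For 16 enterocyte markers it was 821 to 917 CPM in the Pex5-labelled libraries and 325 to 684 CPM in controls, with 2 of 11 tested markers past the threshold, each higher. The enteroendocrine fate gene pros averaged 2.97 CPM in the Pex5-labelled libraries and 1.26 CPM in controls, and the enterocyte gene nub was at 0 in control replicates 1 and 3. The 10 progenitor markers summed to 892 to 1191 CPM in Pex5-labelled libraries and 776 to 1003 CPM in controls, and 0 of the 10 passed. Muscle markers summed to 40.5 to 61.2 CPM in Pex5-labelled libraries and 62.1 to 72.6 CPM in controls, haemocyte markers to 11.3 to 18.1 CPM in Pex5-labelled libraries and 14.7 to 20.5 CPM in controls, and fat body markers to 4.44 to 31.1 CPM in Pex5-labelled libraries and 4.54 to 8.69 CPM in controls. Each of those 3 lists had 1 tested gene, which did not pass. The muscle gene Mhc and the haemocyte gene Hml stayed under 1.5 CPM in each library. The part of other cell types in the family's values was not tested, and in sorted bulk samples fewer cells of a type and less RNA per cell cannot be told apart.

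No tested member of the family passed the test in either direction. Of the 9 counted genes, 6 passed edgeR's filter on low counts (ERp60, Pdi, CaBP1, prtp, CG9911 and CG9302). None of the 6 reached an adjusted p under 0.05 (edgeR's quasi-likelihood test, Benjamini-Hochberg over 5639 genes), where 1.65% of all tested genes did, 0.833% higher and 0.816% lower. At an unadjusted p under 0.05 the count was 1 of 6, CaBP1, beside 13.2% of all tested genes. DESeq2 and limma-voom also called 0 of the 6, where they called 5.55% and 1.49% of the genes they tested. The 2 groups of libraries did not overlap for 2 of the 6, CaBP1 (higher) and CG9911 (lower), against 19.2% of all tested genes, 9.72% higher and 9.45% lower. The median log2 fold change of the 6 was 0.19, beside 0.03 over all tested genes.

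**Figure D1:**
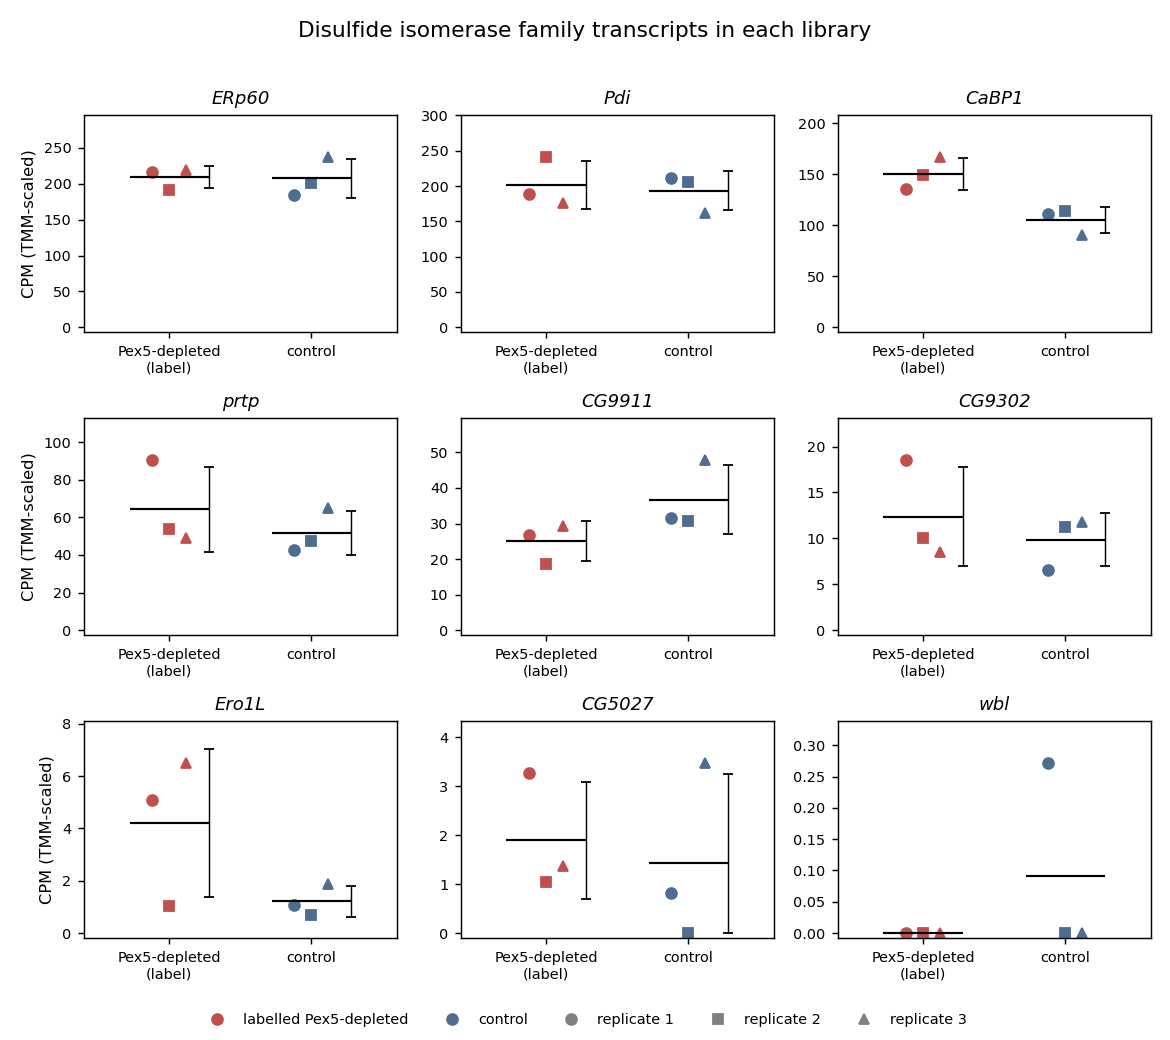
Transcript level (CPM, TMM-scaled) of each counted family member in each library, with Pex5-labelled libraries left and controls right in each panel; black lines are means of 3 libraries, error bars are SDs cut at 0 (none for wbl), and each panel has its own scale. CaBP1 and CG9911 are the tested genes whose groups do not overlap, and ERp60 lies between 184 and 237 CPM in all 6 libraries.

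ERp60 (FBgn0033663, dm6 chromosome 2R, 11887568 to 11890979, minus strand, 4 exons in the Ensembl annotation) is the relative of mammalian PDIA3, which acts on glycoproteins in the ER. It was counted 595, 913 and 642 times in Pex5-labelled libraries and 679, 589 and 887 times in controls. On the CPM scale these were 216, 192 and 219 in the Pex5-labelled libraries and 184, 201 and 237 in controls. On the other strand, cuff overlaps 36 bases of ERp60 and had 7 UMIs in all. The groups overlapped, with the highest library a control on either scale. The lowest was a control with TMM factors, and without them Pex5-labelled replicate 2, at 190.5 CPM, against a control minimum of 191.8 CPM. The mean was 209 ± 15.0 CPM in Pex5-labelled libraries and 207 ± 26.9 CPM in controls (SD, n = 3 each). The interval of the difference, at 95% confidence, ran from 22.2% lower to 30.5% higher in the Pex5-labelled libraries (edgeR's quasi-likelihood test, Benjamini-Hochberg adjusted p = 0.991). The sign of the fitted difference, which is 0.01 on the log2 scale, turned under other scalings and without single libraries. The authors' deposited table of folds lists ERp60 at -4.09 without naming its sides, and puts 85.9% of its genes under a false discovery rate of 0.05. That size exceeds any ratio among these 6 libraries, and what separates the deposited folds from the deposited counts was not tested.

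ERp60 was also one of the steadier transcripts of its level. Its highest library was 1.29 times its lowest. Of 420 tested genes whose mean lay within 2-fold of its own, 6.67% had a smaller ratio, and their median ratio was 1.62. Its coefficient of variation was 7.20% among Pex5-labelled libraries, where counting error alone gives 3.74%, and 12.9% among controls, where it gives 3.73%. The other members lay nearer the middle of genes of their own level: 32.2% of such genes had a smaller ratio than Pdi, 61.8% than CaBP1, 63.8% than prtp, 62.7% than CG9911 and 37.1% than CG9302.

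**Figure D2:**
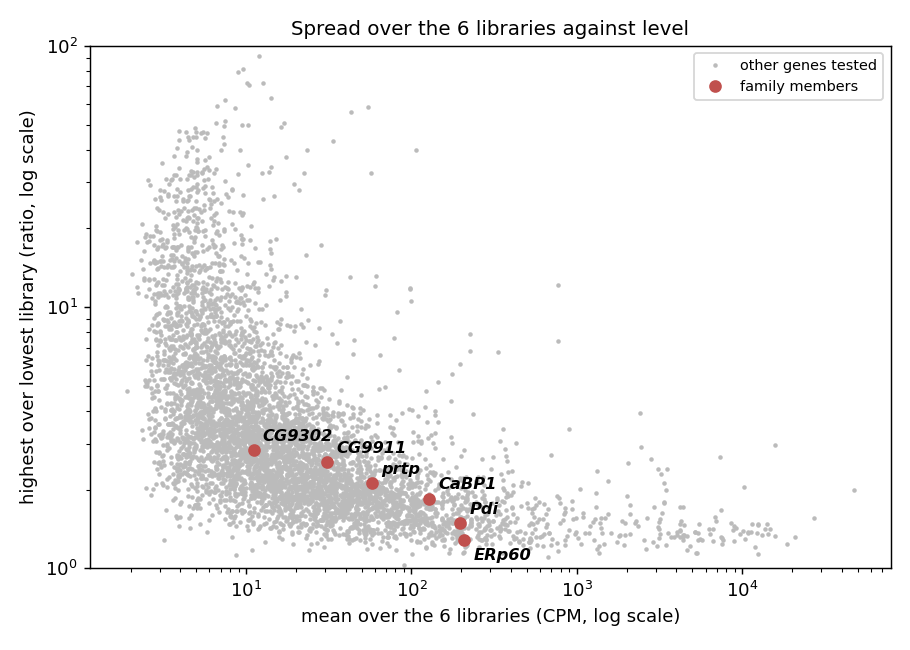
Ratio of the highest to the lowest library against the mean CPM over all 6 libraries, both on log scales, for 5467 tested genes; 167 genes with a library at 0 and 5 with a ratio above 100 are not drawn. ERp60, at a ratio of 1.29, lies near the lower edge of genes of its level, and the other 5 tested members lie within the cloud.

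Pdi (FBgn0014002, chromosome 3L, 15137738 to 15142840, minus strand, 2 exons) encodes the classical disulfide isomerase, whose mammalian counterpart is also a subunit of collagen prolyl 4-hydroxylase. It stood at 189, 241 and 176 CPM in Pex5-labelled libraries, against 212, 206 and 162 CPM in controls. The groups overlapped, with the highest library in the Pex5-labelled group and the lowest among controls. The difference was 0.07 on the log2 scale (SE 0.19, edgeR adjusted p = 0.929), with a 95% interval of -0.34 to 0.47. The annotation places a noncoding antisense gene, asRNA:CR45396, across 670 bases of Pdi on the other strand. That gene was counted 855 times in all, beside 4175 UMIs of Pdi. Whether strand entered the counting is not given in the sources used here, so UMIs of this overlapping pair are uncertain.

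CaBP1 (FBgn0025678, chromosome 2L, 16354886 to 16356735, minus strand, 2 exons), a relative of mammalian PDIA6 that in flies also takes part in the clearance of dying cells, showed the smallest p of the family. It was counted 374, 708 and 487 times in Pex5-labelled libraries and 409, 334 and 337 times in controls. Scaled, these were 136, 149 and 166 CPM in the Pex5-labelled libraries, against 111, 114 and 90.0 CPM in controls. Each Pex5-labelled library lay above each control, with a mean of 150 ± 15.4 CPM, against 105 ± 13.1 CPM in controls (SD, n = 3 each). By edgeR's quasi-likelihood test the unadjusted p was 0.0169 and the Benjamini-Hochberg adjusted p 0.241, so the difference did not pass. It measured 0.52 on the log2 scale (SE 0.19), and its 95% interval ran from 0.11 to 0.93. The separation was also present without TMM factors, at 145, 148 and 146 CPM in the Pex5-labelled libraries and 116, 111 and 94.99 CPM in controls. Leaving out each library in turn gave log2 differences of 0.41 to 0.58 and edgeR adjusted p values of 0.287 to 0.503.

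Pretaporter, encoded by prtp (FBgn0030329, chromosome X, 11716756 to 11719894, plus strand), is an ER protein with thioredoxin-like domains that in flies serves as a ligand of the engulfment receptor Draper on dying cells. Its levels were 90.4, 53.8 and 48.9 CPM in Pex5-labelled libraries and 42.6, 47.4 and 64.9 CPM in controls. One Pex5-labelled library, replicate 1, stood above the other 5, and the rest overlapped. Its log2 fold change of 0.31 (SE 0.28, edgeR adjusted p = 0.698) became -0.01 without that library.

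CG9911 (FBgn0030734, chromosome X, 16293853 to 16297718, minus strand), named ERp44 in the annotation used here, belongs to a class that in mammals holds Ero1 and unfinished secreted proteins back in the early secretory pathway. It had 26.9, 18.7 and 29.4 CPM in Pex5-labelled libraries, against 31.5, 30.7 and 47.8 CPM in controls. Every Pex5-labelled library was below every control, although Pex5-labelled replicate 3 and control replicate 2 differed by little. The mean was 25.0 ± 5.59 CPM in Pex5-labelled libraries and 36.7 ± 9.65 CPM in controls (SD, n = 3 each). On the log2 scale that is -0.56 (SE 0.31), and the edgeR adjusted p of 0.480 did not pass. The 95% interval was -1.23 to 0.10, and without control replicate 3, the highest library, the value was -0.33. An oppositely oriented gene, CG3632, shares 1048 bases with CG9911 and had 11 UMIs in the 6 libraries.

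CG9302 (FBgn0032514, chromosome 2L, 13376455 to 13378538, minus strand, 3 exons), a further disulfide isomerase relative, was the least abundant member to pass the filter. It was at 18.5, 10.1 and 8.54 CPM in Pex5-labelled libraries and at 6.52, 11.3 and 11.8 CPM in controls. The highest value was again replicate 1 of the Pex5-labelled group. Without that library its log2 fold change of 0.33 (SE 0.49, edgeR adjusted p = 0.840) turned to -0.08.

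The other 3 counted members fell under the filter. Ero1L (FBgn0261274, chromosome 3L, 4170404 to 4173789, plus strand), the oxidase that recharges disulfide isomerases and that fly Notch needs for folding, was counted 14, 5 and 19 times in Pex5-labelled libraries and 4, 2 and 7 times in controls. That is 5.08, 1.05 and 6.49 CPM in the Pex5-labelled libraries against 1.09, 0.682 and 1.87 CPM in controls. Replicates 1 and 3 of the Pex5-labelled group stood above each control, and replicate 2 stood inside the control range. In the fit without a count filter its log2 fold change was 1.64 (SE 1.07, edgeR quasi-likelihood adjusted p = 0.658). CG5027 (FBgn0036579, chromosome 3L, 16229100 to 16231139, plus strand), named Tmx3 in the annotation and a membrane-bound thioredoxin-like protein, had 9, 5 and 4 UMIs in the Pex5-labelled libraries and 3, 0 and 13 UMIs in controls. Its end overlaps PDCD-5, a gene with 2593 UMIs, over 59 bases on the other strand. The gene wbl (FBgn0004003, chromosome 2R, 19249395 to 19250917, plus strand), whose product windbeutel acts in the ovary to set the dorsoventral axis of the embryo, had 0 UMIs in the 3 Pex5-labelled libraries and 1 UMI, in control replicate 1. A count of 0 allows up to 3 UMIs, or 0.630 to 1.09 CPM over the 6 libraries, and such limits cover counting error only.

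The order of levels over all 6 libraries, in CPM, was ERp60 (mean 208), Pdi (198), CaBP1 (128), prtp (57.99), CG9911 (30.8), CG9302 (11.1), Ero1L (2.71), CG5027 (1.66) and wbl (0.0452). ERp60 exceeded Pdi in 3 of 6 libraries, so those neighbours did not differ beyond their spread. From Pdi down to Ero1L each gene exceeded the next in all 6 libraries. Ero1L exceeded CG5027 in 4 of 6. The kit tags transcripts near their 3′ ends, so a count does not grow with transcript length. Divided by the length of the longest transcript all the same, the order was unchanged, with ERp60 at 115.2 and Pdi at 84.9 CPM per kb, and ERp60 above Pdi in all 6 libraries. On that scale Pdi exceeded CaBP1, at 71.7 CPM per kb, in 5 of 6.

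Shares within the family do not depend on library size or scaling factors. ERp60, Pdi and CaBP1 together made up 79.0%, 87.3% and 85.6% of family UMIs in Pex5-labelled libraries and 86.0%, 85.3% and 79.0% in controls. ERp60 alone held 31.5%, 28.8% and 33.4% in the Pex5-labelled libraries and 31.2%, 32.9% and 38.3% in controls. Wilson 95% intervals, which cover counting error only and not the spread between libraries, were 29.5% to 33.6%, 27.3% to 30.4% and 31.3% to 35.6% in the Pex5-labelled libraries and 29.3% to 33.2%, 30.7% to 35.1% and 36.3% to 40.3% in controls. Control replicate 3 stood above the other 5, and the remaining control intervals overlapped those of Pex5-labelled replicates 1 and 3. ERp60's share averaged 31.2% ± 2.32 in Pex5-labelled libraries and 34.1% ± 3.69 in controls (SD, n = 3 each), and a two-sided exact permutation test gave p = 0.5, where 0.1 is the smallest p that 3 libraries against 3 allow. CaBP1's share was 19.8%, 22.3% and 25.4% in the Pex5-labelled libraries, each above the 18.8%, 18.6% and 14.5% of controls. CG9911 went the other way, with 3.92%, 2.81% and 4.48% in the Pex5-labelled libraries and 5.34%, 5.03% and 7.73% in controls. Counted against each other, CaBP1 molecules outnumbered those of CG9911 by 5.05, 7.96 and 5.66 to 1 in the Pex5-labelled libraries and by 3.53, 3.71 and 1.88 to 1 in controls. This pair was picked after its values were seen and was not tested.

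**Figure D3:**
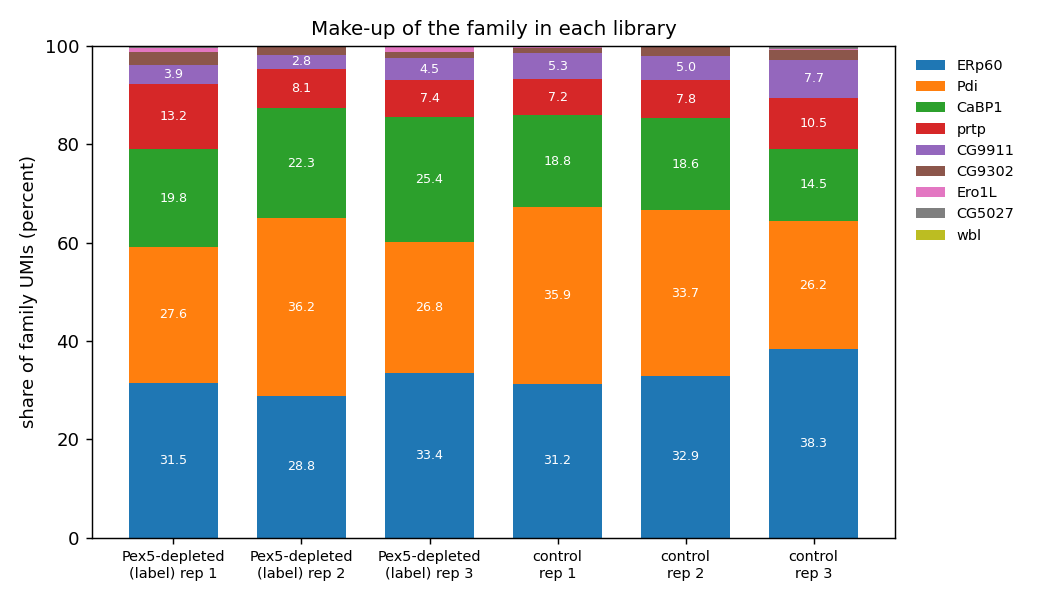
Share of the family's UMIs (percent, from 0 to 100) taken by each member in each library, Pex5-labelled libraries at the left and controls at the right. ERp60, Pdi and CaBP1 fill 79.0% to 87.3% of each bar, and the CaBP1 segment is taller in each Pex5-labelled library than in any control.

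The summed level of the family depended on what served as the total. As a share of all UMIs the family held 0.0734%, 0.0661% and 0.0578% in Pex5-labelled libraries and 0.0614%, 0.0594% and 0.0653% in controls, and the groups overlapped. Scaled with TMM factors the sums were 685, 666 and 656 CPM in the Pex5-labelled libraries and 590, 611 and 619 CPM in controls, and they did not overlap. The factors were 1.07, 0.993 and 0.880 in the Pex5-labelled libraries and 1.04, 0.973 and 1.06 in controls. Pex5-labelled replicate 3 had the lowest share of all UMIs and also the smallest factor, so scaling raised it most. The separation on the TMM scale thus depends on the factor of that library. With mitochondrial, cytosolic ribosomal protein and heat shock transcripts taken out of the total, the shares were 0.211%, 0.203% and 0.189% in the Pex5-labelled libraries and 0.169%, 0.174% and 0.185% in controls, again without overlap. Of the removed classes, ribosomal protein transcripts took the most, at 52.9% to 56.4% of UMIs in the Pex5-labelled libraries and 55.7% to 56.3% in controls, and those groups overlapped. The other 2 classes lay apart. Mitochondrial transcripts took 8.04% to 9.31% of UMIs in the Pex5-labelled libraries and 5.63% to 7.44% in controls, and heat shock transcripts 3.47% to 4.09% in Pex5-labelled libraries and 1.55% to 3.33% in controls. Taking these 2 larger classes out of the total raises any share more in the Pex5-labelled libraries, by arithmetic. Their part in the family's sum was not tested beyond this recount. Among the members, CaBP1 had the largest difference in mean, at 150 CPM in Pex5-labelled libraries and 105 CPM in controls. In the same order, prtp averaged 64.3 and 51.6 CPM, Pdi 202 and 193 CPM, ERp60 209 and 207 CPM, and CG9911 25.0 and 36.7 CPM. For single genes on the TMM scale the groups did not overlap in 19.2% of all tested genes. That share does not apply directly to a sum of several genes or to the other totals.

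**Figure D4:**
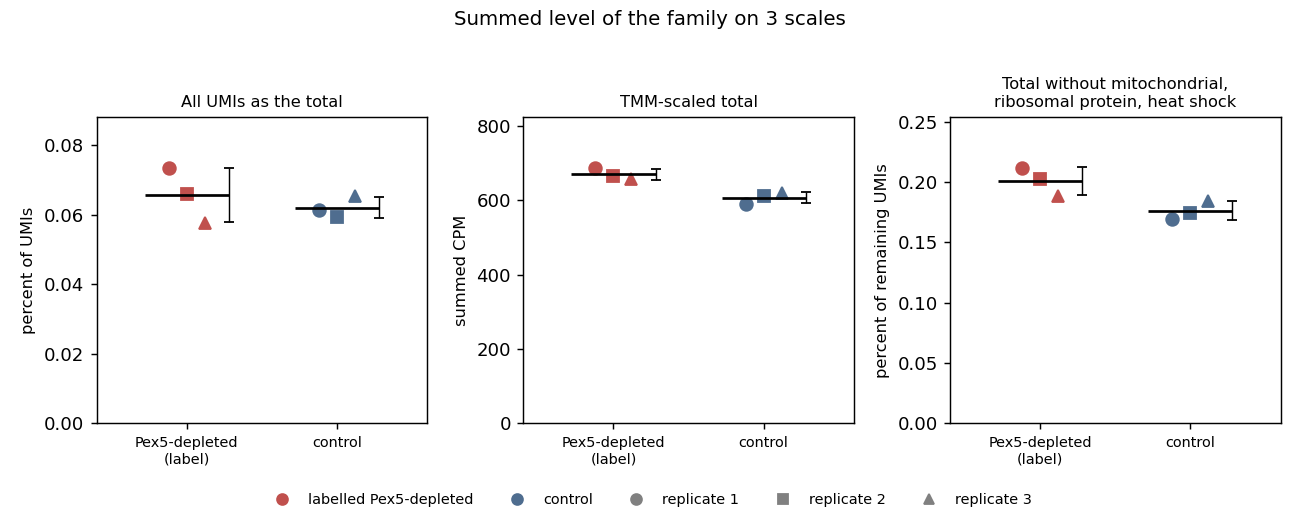
Summed level of the 9 counted members in each library with 3 different totals: percent of all UMIs, summed CPM after TMM scaling, and percent of UMIs once mitochondrial, ribosomal protein and heat shock transcripts are removed; black lines are means and error bars SDs of 3 libraries. The groups overlap in the first panel and lie apart in the other 2.

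Partners of the disulfide isomerases were read from 8 lists of ER genes. The calnexin cycle in mammals offers glycoproteins to the ERp60 relative PDIA3. Of its 9 listed genes 6 were tested and 0 passed, with a median log2 fold change of 0.25. The lectin gene Calr had 111, 118 and 95.7 CPM in Pex5-labelled libraries and 165, 144 and 124 CPM in controls (log2 fold change -0.42, SE 0.20, edgeR adjusted p = 0.378). Its membrane-bound counterpart Cnx99A had 34.8, 45.8 and 35.5 CPM in the Pex5-labelled libraries and 23.3, 32.4 and 29.1 CPM in controls (0.46, SE 0.28, edgeR adjusted p = 0.540). The groups lay apart for both lectins, in opposite directions, without passing the test. That was 1 of the 6 tested genes in each direction, beside 9.72% higher and 9.45% lower among all tested genes. GCS2beta, a glucosidase subunit, was at 30.3 ± 8.12 CPM in Pex5-labelled libraries and 29.1 ± 4.83 CPM in controls (SD, n = 3 each).

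Among 8 genes of the ER Hsp70 and Hsp90 system 7 were tested and 0 passed, with a median of -0.08. Hsc70-3, the fly BiP, was at 138 ± 56.2 CPM in Pex5-labelled libraries and 119 ± 31.0 CPM in controls, and the Hsp90 gene Gp93 at 54.8 ± 13.7 CPM in Pex5-labelled libraries and 58.1 ± 15.9 CPM in controls (SD, n = 3 each). Manf, a secreted ER stress-responsive factor, had 49.0, 74.4 and 83.7 CPM in the Pex5-labelled libraries and 131, 105 and 109 CPM in controls. Those groups lay apart, and its log2 fold change of -0.73 (SE 0.23) had an edgeR adjusted p of 0.160. In this list the groups lay apart in the lower direction for 3 of the 7, Manf among them, and in the higher direction for 0. Among all tested genes the shares were 9.45% lower and 9.72% higher.

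The list of other ER thiol enzymes, with 3 of 5 genes tested, held the only gene of the 8 lists that passed. Those lists name 78 genes, of which not all were tested. Over all tested genes 1.65% passed, so a single call among the tested genes of the lists is near that share. CG7484, the counterpart of the mammalian selenoprotein SELENOF, a thioredoxin-like partner of the glycoprotein folding sensor UGGT, was lower in Pex5-labelled libraries. It had 47.2, 61.3 and 53.7 CPM in Pex5-labelled libraries and 124, 104 and 88.9 CPM in controls. This was a log2 fold change of -0.96 (SE 0.22, edgeR quasi-likelihood adjusted p = 0.0443), with a 95% interval of -1.44 to -0.49. The groups lay well apart, but the call was lost in each of the 6 fits without 1 library, at edgeR adjusted p between 0.0645 and 0.198, and with a replicate block, at 0.0786, while the log2 fold change stayed between -1.08 and -0.84. The ER peroxiredoxin gene Jafrac2, which clears peroxide, was at 103 ± 30.3 CPM in Pex5-labelled libraries and 108 ± 8.88 CPM in controls, and CG4670, a quiescin-type sulfhydryl oxidase gene, at 5.61 ± 4.00 CPM in Pex5-labelled libraries and 2.28 ± 0.853 CPM in controls (SD, n = 3 each).

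The remaining 5 lists held no gene past the threshold. Of 12 genes of the unfolded protein response and ER-associated degradation 11 were tested, with a median of -0.07. Xbp1, the transcription factor that drives ER chaperone genes, had 168, 157 and 144 CPM in Pex5-labelled libraries and 148, 103 and 122 CPM in controls (log2 fold change 0.33, SE 0.20, edgeR adjusted p = 0.515). The ATF4 gene crc was at 320.1 ± 53.1 CPM in Pex5-labelled libraries and 379.7 ± 25.1 CPM in controls, and the retrotranslocation gene Der-1 at 76.4 ± 1.11 CPM in Pex5-labelled libraries and 90.5 ± 20.6 CPM in controls (SD, n = 3 each). Of 16 genes of the translocon, signal peptidase and oligosaccharyl transferase 15 were tested, 11 had a negative fold change, and the median was -0.29. The groups lay apart in the lower direction for 5 of the 15, and in the higher direction for 1, beside 9.45% and 9.72% of all tested genes. Ost48, an oligosaccharyl transferase subunit, was at 492 ± 45.5 CPM in Pex5-labelled libraries and 613 ± 71.8 CPM in controls, the signal peptidase gene Spase22-23 at 211 ± 44.9 CPM in Pex5-labelled libraries and 320.4 ± 105 CPM in controls, and Sec61beta at 289 ± 31.4 CPM in Pex5-labelled libraries and 342 ± 12.1 CPM in controls (SD, n = 3 each). Their edgeR adjusted p values were 0.417, 0.263 and 0.588.

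ER retrieval and export had 11 of 12 genes tested and a median of -0.16, and the groups lay apart in the lower direction for 3 of the 11 and in the higher direction for 0, beside 9.45% lower and 9.72% higher among all tested genes. KdelR, the receptor that returns ER-resident proteins from the Golgi, was at 209 ± 4.97 CPM in Pex5-labelled libraries and 196 ± 30.01 CPM in controls, while the coat GTPase gene Sar1 was at 345 ± 8.78 CPM in Pex5-labelled libraries and 437 ± 34.9 CPM in controls (SD, n = 3 each; edgeR adjusted p = 0.884 and 0.356). The cargo receptor gene bai was at 249.5 ± 22.8 CPM in Pex5-labelled libraries and 279.9 ± 7.30 CPM in controls. Of 4 ER prolyl isomerase genes 3 were tested, with CG2852 the most abundant at 516 ± 74.2 CPM in Pex5-labelled libraries and 562 ± 41.1 CPM in controls, CG14715 at 110.3 ± 20.5 CPM in Pex5-labelled libraries and 88.7 ± 13.5 CPM in controls, and Fkbp14 at 17.2 ± 4.35 CPM in Pex5-labelled libraries and 20.0 ± 9.26 CPM in controls. Of 12 genes of collagen hydroxylation and collagen IV 1 was tested, the prolyl hydroxylase gene PH4alphaEFB, at 7.93 ± 2.31 CPM in Pex5-labelled libraries and 7.21 ± 1.55 CPM in controls (SD, n = 3 each).

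**Figure D5:**
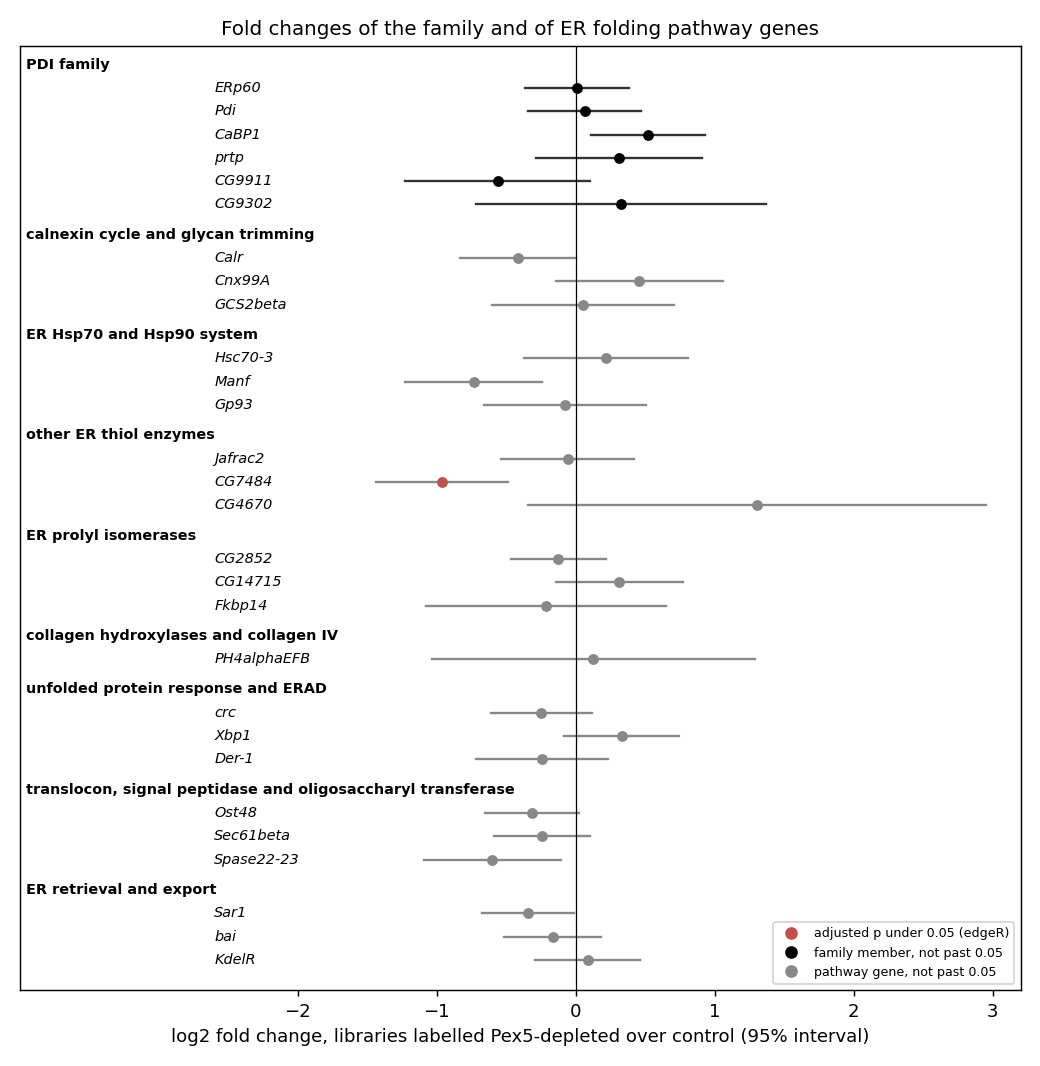
Log2 fold change, Pex5-labelled libraries over control, with its 95% interval from edgeR's quasi-likelihood fit, for the 6 tested family members (black) and the named genes of 8 ER pathway lists (grey, red where the adjusted p is under 0.05). CG7484, at -0.96, is the one gene drawn in red, and the interval of CaBP1 is the only one of the family that leaves out 0.

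The 5 genes whose profile over the 6 libraries was nearest to that of ERp60, among 665 tested non-members with a mean of at least 100 CPM, were zetaCOP, Phb2, l(2)37Cc, CR42491 and vsg. Likeness was the root mean square difference of log2 CPM after centring each gene, and it was 0.07 for zetaCOP, a coat subunit of Golgi vesicles, and 0.10 for vsg, where the median of the 665 genes was 0.26. The prohibitin genes Phb2 and l(2)37Cc lay at 0.08 and 0.09. ERp60 itself varied little, its highest library being 1.29 times its lowest. The measure can therefore favour other steady genes and set more variable genes far away, so it does not by itself show a shared pattern. Of the members above that level, Pdi differed from ERp60 by 0.30, with 421 of the 665 genes closer, and CaBP1 by 0.34, with 487 closer. The less abundant prtp, CG9911 and CG9302, whose counting error is larger and whose levels lie under 100 CPM, differed by 0.30, 0.33 and 0.39 and were not ranked against those genes.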

How the data were processed

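Per the labels' protocols, RNA of sorted cells was tagged near its 3′ ends with a QIAseq UPX kit. The authors deposited UMI counts per gene and well index; HISAT2, StringTie, DESeq2 and dm6 appear in the submitters' processing notes without roles. Reads of several loci were dropped, per the file headers. The 29 columns of other well indexes and 7 spike-in UMIs (3.37e-05% of the total) were left out. The authors also deposited a table of signed linear fold scores with p-values and false discovery rates, whose sides it does not name; it entered no test.

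The main test was edgeR 4.0.16 (R 4.3.3), quasi-likelihood, on the counts as deposited, with TMM factors, the expression filter (minimum count 10), without covariates. Adjustment (Benjamini-Hochberg, threshold 0.05) ran over the 5639 tested genes. The fit was tested on simulated data. Alternatives used RLE or no factors, other filters, DESeq2 1.42.0, limma-voom 3.58.1, a replicate block and each library left out. CPM values are TMM-scaled unless stated. Positions are those of the UMI table; exons, lengths and overlaps came from Ensembl release 115 (BDGP6, dm6 coordinates), where 8 of 9 members matched by gene ID, Pdi matched by position, and all 9 had the same start and end. The members, the 8 pathway and 6 marker lists were chosen with earlier results of these data known. All members were named; of each pathway list, the 3 most abundant tested genes and up to 4 past the threshold.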

Additional observations from a re-analysis of the deposited data

How the results depend on the processing

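No family member that was tested passed under any of the 13 alternatives. Those fits called few genes, from 17 of 6013 tested without control replicate 1 to 207 of 3727 (5.55%) with DESeq2. A count of 0 among so few members is near such shares. Ero1L, CG5027 and wbl had no adjusted p with DESeq2, and several other fits filtered them out. ERp60 turned sign on the log2 scale with DESeq2 (-0.0135), RLE factors (-0.00662), no count filter (-0.0557) and no composition factor (-0.0527). In the fits without 1 library it lay between -0.0744 and 0.112. Those fits gave -0.0847 to 0.133 for Pdi, below 0 without control replicate 3 and without Pex5-labelled replicate 2. They gave -0.0101 to 0.507 for prtp and -0.0752 to 0.505 for CG9302, below 0 only without Pex5-labelled replicate 1. CaBP1 (0.41 to 0.58) and CG9911 (-0.72 to -0.33) kept their direction in all 13. Pex5 itself lay between -0.0284, without Pex5-labelled replicate 3, and 1.76. The difference in the family's share of all UMIs was 0.00370 percentage points, and -0.00010 to 0.00769 without 1 library, lowest without Pex5-labelled replicate 1. Over all genes 93 were called, against 197 without a count filter, 207 with DESeq2 and 17 to 80 without 1 library. Deviations of same-numbered libraries correlated at -0.01, -0.05 and 0.01, beside -0.05 to 0.07 for the other pairs of a control and a Pex5-labelled library. These values do not settle whether same-numbered libraries were collected together. With the replicate block 58 genes were called and ERp60 stood at 0.02. ERp60's share of family UMIs differed by -2.89 percentage points with or without that block, since groups of equal size must give the same difference in means. CG7484 had an adjusted p of 0.0786 by edgeR's quasi-likelihood test with the block. The cause of these shifts was not tested. Few counts, under 20 in each library, limit Ero1L, CG5027 and wbl.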

Other observations

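The authors' deposited fold table gave family values that differ from those of the UMI counts. It lists 13635 genes with a fold, of which 85.9% have a false discovery rate under 0.05, and its sides are not named. In the authors' deposited table ERp60 has a signed fold of -4.09 (false discovery rate 6.08e-58), while its highest library in the UMI table is 1.29 times its lowest, whatever the labels. In the same authors' deposited table CG9911 is at -4.71, CG5027 at -2.96, Pdi at -2.31, prtp at -2.27 and CG9302 at -1.87, each with a false discovery rate under 0.05. CaBP1 is at -1.17 and Ero1L at 1.35 in the authors' deposited table, neither under 0.05. For 4 members, ERp60, CG9911, Pdi and prtp, the fold in the authors' deposited table exceeds the highest-to-lowest ratio among the 6 libraries, which is 1.29, 2.56, 1.49 and 2.12. CG10029, which has no row in the UMI table, is at 104 in the authors' deposited table, with a false discovery rate of 0.0358. The authors' deposited table lists wbl at 5188, where the UMI table holds 1 UMI of it in all. Pex5 is at -2.50 in the authors' deposited table, with 64 UMIs in Pex5-labelled libraries and 28 in controls. Pdi carries the newer gene ID FBgn0286818 in the authors' deposited table and FBgn0014002 in the UMI table, and 2543 genes with a fold have an ID with no row in the UMI table. Which libraries and sides entered that table was not settled here.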
